A study of Mus musculus with 24 samples.

Results

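The death receptors of the tumor necrosis factor (TNF) family, with their ligands and the proteins inside the cell that pass on or block their signal, were followed in the blood of young and old mice after whole-body irradiation. The genes were *Fas*, *Fasl*, *Tnfrsf10b*, *Tnfsf10*, *Tnfrsf1a*, *Tnfrsf1b*, *Tnf*, *Fadd*, *Casp8* and *Cflar*. They were picked by name, with earlier results of these data known, and every probe that carried 1 of the names in the scanner files was taken. This gave 14 of the 39429 probes on the array and 10 of the 17805 genes tested. *Cflar* had 4 probes, *Tnfrsf1a* had 2 and the other genes had 1 each. All 10 genes passed the filters on dim probes and on genes that vary little, which is not in itself a result.

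The mice were male C57BL/6J, 6 in each of 4 groups, with 1 mouse per array. Young mice were 2 months old and old mice were 21 months old. In each age, 1 group received 4 Gy of total-body x-rays and the other was sham irradiated, and blood was drawn by cardiac puncture 24 h later. RNA came from whole blood with globin transcripts reduced, so the groups differ in age, in radiation and in whatever mixture of blood cells each mouse had. Fewer cells of a type and less RNA per cell cannot be told apart in such samples. Levels are given as the log2 signal of a probe minus the median of its array, so that 0 is a typical spot. They are compared between mice for the same probe and never between probes. A gene is called upregulated or downregulated where limma's p was under 0.005 and its Benjamini-Hochberg adjusted p over all genes tested was under 0.05.

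The arrays did not all look alike. Spots well above background made up 43.9% to 64.4% of an array, and the median signal lay between 8.66 and 44.8. Old irradiated mice 4 and 6 stood apart from the other 4 mice of their group. They had the lowest median signals, 8.66 and 8.84, against 18.3 to 33.1 in the others. Over the 10402 to 10405 genes above background on all arrays and measured on both, they correlated with each other at r = 0.994 and with the other 4 at 0.741 to 0.810, whereas the other 4 correlated among themselves at 0.934 to 0.984. Their mean log2 level of red cell markers was 10.6, against 5.24 to 6.49 in the others, and that of monocyte and macrophage markers was 3.39 and 3.55, against 6.35 to 6.44. The labels put them in the group, so results on old irradiated mice are given with and without them. All markers of the 7 blood cell lists passed the filters. Hepatocyte markers averaged above 8 in young irradiated mice 2, 4 and 5 and in old irradiated mice 2, 3 and 5 (9.94 to 11.4), and 7.28 or less elsewhere. *Alb*, which encodes the main plasma protein of liver, was well above background on 14 of the 24 arrays. The arrays lay on 6 slides of 4, each slide held 1 age, and the ages were scanned on different days, so age cannot be told apart from slide or scan day.

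TNF family ligands on or shed from immune cells bind trimeric receptors on the target cell. FAS, the TRAIL receptor encoded by *Tnfrsf10b* and TNF receptor 1 (*Tnfrsf1a*) carry a death domain and can assemble, through the adaptor FADD, a platform on which caspase 8 activates itself, whereas TNF receptor 2 (*Tnfrsf1b*) lacks that domain. The caspase 8 look-alike c-FLIP (*Cflar*) enters the same platform and limits its activity. In blood, FAS ligand is made mainly by cytotoxic lymphocytes, TRAIL (*Tnfsf10*) is its close relative, TNF receptor 1 is widespread, and *Fas* and *Tnfrsf10b* are known targets of the DNA damage regulator p53.

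What was read out for 3 of these genes is shown first, because these probes carry results that follow. Each is 60 bases, written in lower case as deposited, with mm9 positions from the scanner files. They are the only *Casp8* probe (chr1:58901601-58901660), the second *Tnfrsf1a* probe A_55_P2051099 (chr6:125311922-125311981) and the *Cflar* probe A_55_P1983459 (chr1:58810660-58810719), of which the last 2 are second readings of their genes.
*Casp8*: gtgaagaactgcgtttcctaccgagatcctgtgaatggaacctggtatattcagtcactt
*Tnfrsf1a*: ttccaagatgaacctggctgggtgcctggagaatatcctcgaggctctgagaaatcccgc
*Cflar*: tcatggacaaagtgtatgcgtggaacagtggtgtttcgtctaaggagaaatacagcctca

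The stretches upstream of the start sites of *Fasl*, *Fas* and *Tnfrsf1a* are shown because these ligand and receptor genes rose in young irradiated mice. They come from RefSeq (GRCm38.p6, a later build than that of the probes), which held 9 of the 10 genes and not *Tnfrsf10b*. Capitals mark the matches to 3 motifs searched on both strands: TGANTCA (AP-1), GGG, any 2 bases and TTTCC (NF-kB) and the half-site of p53. *Fasl* held 1 p53 half-site (chr1:161788496-161788745, minus strand), *Fas* held 1 AP-1 match (chr19:34290409-34290646, plus strand) and *Tnfrsf1a* held none (chr6:125349473-125349722, plus strand). The other 6 promoters held none of the 3 motifs. Of 32851 mouse promoter stretches, 6.75% held the AP-1 letters, 1.41% the NF-kB letters and 7.13% the p53 half-site, so single matches of this kind are common and are given as a description only.
*Fasl*: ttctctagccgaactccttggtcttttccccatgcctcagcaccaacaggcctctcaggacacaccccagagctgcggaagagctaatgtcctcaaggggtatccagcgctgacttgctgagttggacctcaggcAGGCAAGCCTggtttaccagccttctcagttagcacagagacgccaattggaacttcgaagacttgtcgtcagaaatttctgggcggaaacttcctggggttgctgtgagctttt
*Fas*: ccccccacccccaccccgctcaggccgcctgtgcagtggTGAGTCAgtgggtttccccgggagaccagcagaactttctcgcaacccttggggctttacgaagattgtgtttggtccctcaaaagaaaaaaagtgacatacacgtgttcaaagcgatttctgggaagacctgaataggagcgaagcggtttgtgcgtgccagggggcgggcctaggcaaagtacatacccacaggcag
*Tnfrsf1a*: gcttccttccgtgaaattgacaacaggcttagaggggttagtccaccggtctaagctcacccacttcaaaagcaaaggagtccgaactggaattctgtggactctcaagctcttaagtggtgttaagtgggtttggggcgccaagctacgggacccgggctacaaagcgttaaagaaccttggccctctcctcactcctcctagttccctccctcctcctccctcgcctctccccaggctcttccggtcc

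The first question was how these genes responded to radiation in young mice. In young mice 5 of the 10 genes were upregulated 24 h after 4 Gy and 0 were downregulated: the ligand *Fasl*, the receptors *Fas*, *Tnfrsf10b* and *Tnfrsf1a*, and the inhibitor *Cflar*. Over all genes tested, 14.3% were upregulated and 21.1% were downregulated. The median change of the 10 genes was 0.61 on the log2 scale, against -0.20 over all genes. The 5 genes that were not called each had an unadjusted p above 0.05. In 4 of the called genes every irradiated mouse was above every unirradiated mouse, as in 9.46% of all genes.

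Among the ligands, *Fasl*, which encodes the ligand of FAS, lay at 1.41, 2.15 and 2.57 (lowest, median and highest of 6 mice) in young unirradiated mice and at 2.37, 3.84 and 4.96 in young irradiated mice. The groups overlapped through a single animal, young irradiated mouse 4, at 2.37. The rise was 1.75 on the log2 scale (SE 0.38, 3.36-fold, adjusted p = 0.00249). *Tnfsf10*, encoding TRAIL, had a median of 1.86 before and 2.14 after irradiation, and its difference of 0.34 had a 95% interval of -0.12 to 0.80 (adjusted p = 0.212). *Tnf* itself, the founding member of the family, differed by 0.05 (interval -0.56 to 0.67, adjusted p = 0.894), with 5 of 6 mice of each group well above background.

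The 3 death domain receptors rose, and none of them overlapped between the groups. *Fas* ran from 2.67 to 3.46 (median 3.15) in unirradiated mice and from 3.82 to 4.23 (median 3.96) in irradiated mice. This was a rise of 0.88 (SE 0.16, 1.85-fold, adjusted p = 0.000607). *Tnfrsf10b* ran from -0.83 to 0.23 in unirradiated mice, of which 4 of 6 were well above background, and from 0.99 to 1.24 in irradiated mice, all 6 of them well above it. It rose by 1.22 (SE 0.18, 2.33-fold, adjusted p = 0.000145), though by 0.396 under normexp background correction (adjusted p = 0.0166), and the 6 irradiated mice lay closer together than those of any other group for this gene. *Tnfrsf1a* ran from 4.88 to 5.67 (median 5.17) and from 6.27 to 6.57 (median 6.40), a rise of 1.14 (SE 0.16, 2.20-fold, adjusted p = 0.000105). *Tnfrsf1b*, the receptor without a death domain, had medians of 3.94 and 3.90 and a difference of -0.14 (interval -0.63 to 0.35, adjusted p = 0.640).

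The signalling proteins downstream of the receptors divided. *Fadd*, the adaptor, had medians of 1.89 and 1.66, and *Casp8*, the initiator caspase, had medians of 4.41 and 4.47. Both pairs of groups overlapped, with differences of -0.18 (interval -0.49 to 0.14, adjusted p = 0.353) and 0.02 (interval -0.38 to 0.42, adjusted p = 0.934). *Cflar*, the inhibitor of the same complex, ran from 4.07 to 4.71 (median 4.55) in unirradiated mice and from 5.36 to 6.61 (median 6.13) in irradiated mice. The groups did not overlap, and the rise was 1.59 (SE 0.22, 3.01-fold, adjusted p = 0.000107).

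**Figure D1:**
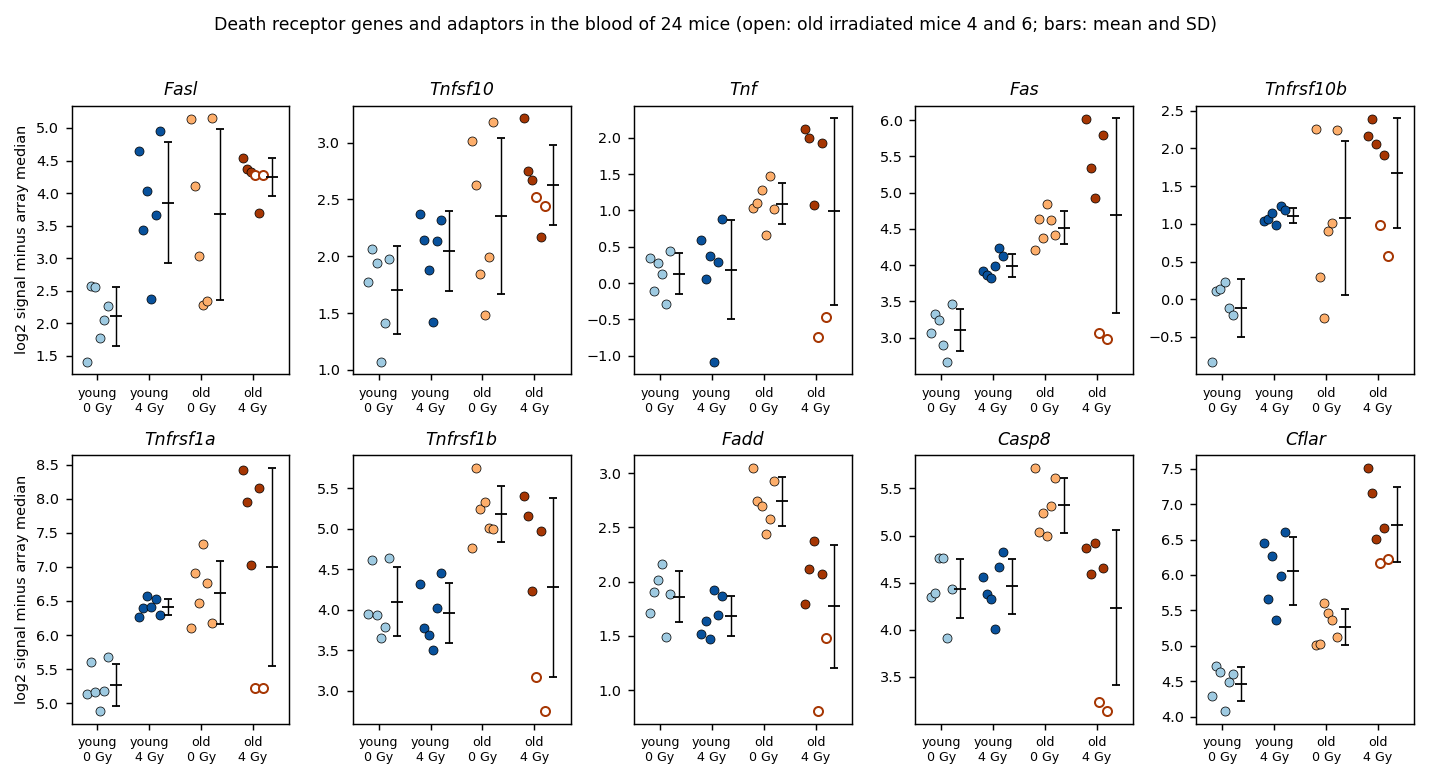
Log2 signal minus array median (y axis) of the 10 genes in each of the 24 mice, 1 panel per gene with the 4 groups along the x axis; each point is 1 mouse and the bar is the group mean with its SD. In young mice *Fas*, *Tnfrsf10b*, *Tnfrsf1a* and *Cflar* do not overlap between the groups, and in old irradiated mice numbers 4 and 6 lie far below the other 4 for *Fas* and *Tnfrsf1a* (2.98 and 3.06, and 5.22 and 5.23).

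A single slide held both young groups, with irradiated mice 1 and 2 and unirradiated mice 5 and 6. Within it the difference was 1.89 for *Fasl*, 0.83 for *Fas*, 1.21 for *Tnfrsf10b*, 0.91 for *Tnfrsf1a* and 1.51 for *Cflar*, close to those over all slides. With the slide as a block, which uses the same contrast, *Tnfrsf10b* (adjusted p = 0.0431) and *Cflar* (0.0425) were called, beside 4.62% of all genes called higher, and *Fasl* (0.107), *Fas* (0.0909) and *Tnfrsf1a* (0.0630) were not. Without the 3 young irradiated mice that had hepatocyte markers above 8, 5 genes were again called, beside 14.3% of all genes. *Tnfrsf10b* lost its call in the authors' deposited values (1.14, adjusted p = 0.0305), and *Fas* and *Tnfrsf1a* lost theirs under normexp background correction.

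Cell type markers moved in young mice together with these genes. All 6 B cell markers and 6 of 7 T cell markers were downregulated, as were 3 of 4 red cell markers, whereas 3 of 5 natural killer cell markers, 4 of 7 neutrophil markers, 5 of 7 monocyte and macrophage markers and 4 of 4 platelet markers were upregulated. None of the 5 hepatocyte markers tested was called. The mean level of the natural killer cell list ran from 3.50 to 4.92 in unirradiated and from 4.38 to 6.28 in irradiated mice, and that of the monocyte list from 4.52 to 5.33 and from 5.82 to 6.80. The part of these cell types in the rise of the 5 genes was not tested.

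In old mice the question was the same, and the answer depended on mice 4 and 6. Over all 6 irradiated mice, *Cflar* was upregulated and *Fadd* was downregulated, and the other 8 genes were not called. Over all genes tested, 7.49% were upregulated and 17.4% were downregulated. In 1 of the 10 genes every irradiated mouse was above every unirradiated mouse (5.82% of all genes), and in 2 genes every irradiated mouse was below (16.7% of all genes). Without mice 4 and 6, *Fas*, *Tnfrsf1a* and *Cflar* were upregulated and *Fadd* was downregulated, against 11.7% and 22.7% of all genes in these directions.

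*Cflar*, read by the probe that stood for it, was upregulated in old mice on either set of mice, whereas the mean of its 4 probes gave 0.60 over 6 mice and was not called (adjusted p = 0.144). The probe ran from 5.01 to 5.61 (median 5.24) in unirradiated mice and from 6.17 to 7.51 (median 6.59) in irradiated mice, with mice 4 and 6 the lowest, at 6.17 and 6.23, yet still above all unirradiated mice. The rise was 1.44 (SE 0.28, 2.72-fold, adjusted p = 0.00235), and 1.70 without the pair (adjusted p = 0.000332). Within the slide that held both old groups (irradiated mice 1 and 2, unirradiated mice 5 and 6) it was 2.10. There *Tnfrsf1a* differed by 1.72 and was called (adjusted p = 0.0390), beside 5.83% of all genes called higher, and *Fas* differed by 1.16 (adjusted p = 0.0685, not called). That slide held neither mouse 4 nor mouse 6.

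*Fadd* and *Casp8*, the adaptor and the caspase, were lower in every old irradiated mouse than in any old unirradiated mouse. The same held for 16.7% of all genes, so 2 of the 10 genes is near the share over the whole array. *Fadd* ran from 2.44 to 3.05 (median 2.72) in unirradiated mice. In irradiated mice 1 to 6 it was 1.796, 2.11, 2.37, 0.80, 2.07 and 1.48. It fell by 0.97 (SE 0.28, 1.96-fold, adjusted p = 0.0178), and by 0.65 without mice 4 and 6 (adjusted p = 0.0115). This call was close to the threshold: leaving out a single mouse ended it for old unirradiated mice 1, 2, 3, 5 and 6 and old irradiated mice 1, 4 and 6, with a difference of -0.77 without irradiated mouse 4 and between -0.91 and -0.9997 without the others. The call also rested on median scaling. It was lost with the 75th percentile (-0.67), quantile normalization (-0.75), the median of bright probes (-0.62), the authors' values (-0.72) and normexp correction (-0.17). *Casp8* ran from 4.999 to 5.72 (median 5.28) in unirradiated mice and was 4.87, 4.60, 4.92, 3.23, 4.66 and 3.13 in irradiated mice 1 to 6. Its difference of -1.09 had an adjusted p of 0.0316 but a p of 0.00940, which missed the threshold of 0.005. Without the pair the difference was -0.56 (adjusted p = 0.0300, again not called). It was called where old irradiated mice 2, 3 and 5, those with hepatocyte markers above 8, were left out (-1.58, adjusted p = 0.00714), which leaves mice 4 and 6 as 2 of the 3 irradiated mice, and in 1 fit of all 24 arrays (-1.09, adjusted p = 0.00341). In these fits 24.4% and 26% of all genes were called lower.

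Of these genes, *Fas* and *Tnfrsf1a* differed most between the 2 sets of mice. *Fas* ran from 4.21 to 4.84 (median 4.52) in old unirradiated mice. In irradiated mice 1 to 6 it was 6.02, 5.34, 4.92, 3.06, 5.79 and 2.98, so that 4 mice were above all unirradiated mice and 2 were below all of them. Over 6 mice the difference was 0.17 (interval -0.94 to 1.27, adjusted p = 0.815), and over the 4 mice it was 1.002 (interval 0.50 to 1.51, adjusted p = 0.00457). *Tnfrsf1a* followed the same course, from 6.11 to 7.33 in unirradiated mice and at 8.43, 7.95, 7.03, 5.22, 8.16 and 5.23 in irradiated mice 1 to 6. Its difference was 0.38 over 6 mice (interval -0.84 to 1.60, adjusted p = 0.623) and 1.27 over 4 (interval 0.58 to 1.95, adjusted p = 0.00668). *Tnfrsf10b* spread from -0.25 to 2.26 in old unirradiated mice, and its differences of 0.60 over 6 mice (interval -0.43 to 1.62, adjusted p = 0.346) and 1.05 over 4 (adjusted p = 0.0812) were not called. In each old group 5 of 6 mice were well above background for *Tnfrsf10b*, and the lowest mouse of each was not. *Tnfrsf1b* differed by -0.90 over 6 mice (adjusted p = 0.135) and by -0.24 over 4 (adjusted p = 0.469).

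The ligands were not called in old mice on either set. *Fasl* was widely spread before irradiation: mice 1 to 6 were at 5.13, 4.11, 3.04, 2.27, 2.34 and 5.15, against 3.69 to 4.54 in the 6 irradiated mice. The difference was 0.57 (interval -0.52 to 1.66, adjusted p = 0.398). *Tnfsf10* differed by 0.27 (adjusted p = 0.531), and the same unirradiated mice 1 and 6 were its highest, at 3.01 and 3.18. The arrays of unirradiated mice 1 and 6 were very alike (r = 0.998), and whether they are 1 sample hybridized again was not tested. *Tnf* differed by -0.11 over 6 mice (adjusted p = 0.881) and by 0.69 over 4 (interval 0.17 to 1.21, adjusted p = 0.0329, p above the threshold), with levels of -0.74 and -0.46 in mice 4 and 6 and of 1.07 to 2.12 in the others. In irradiated mice 4 and 6 *Tnf* was not well above background.

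In old mice all 6 B cell markers were downregulated and all 4 platelet markers were upregulated, on either set of mice. All 5 hepatocyte markers tested were also upregulated on either set, with a median change of 6.50, or 7.98 without mice 4 and 6. No natural killer cell, T cell or neutrophil marker was called over 6 mice, and 1 of 7 monocyte and macrophage markers was downregulated. Mice 4 and 6, lowest for *Fas* and *Tnfrsf1a*, were also lowest for the monocyte list and for the neutrophil list (6.93 and 7.14, against 8.33 to 10.4) and highest for the red cell list. The part of these cell types in the levels of the 2 receptors was not tested.

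**Figure D2:**
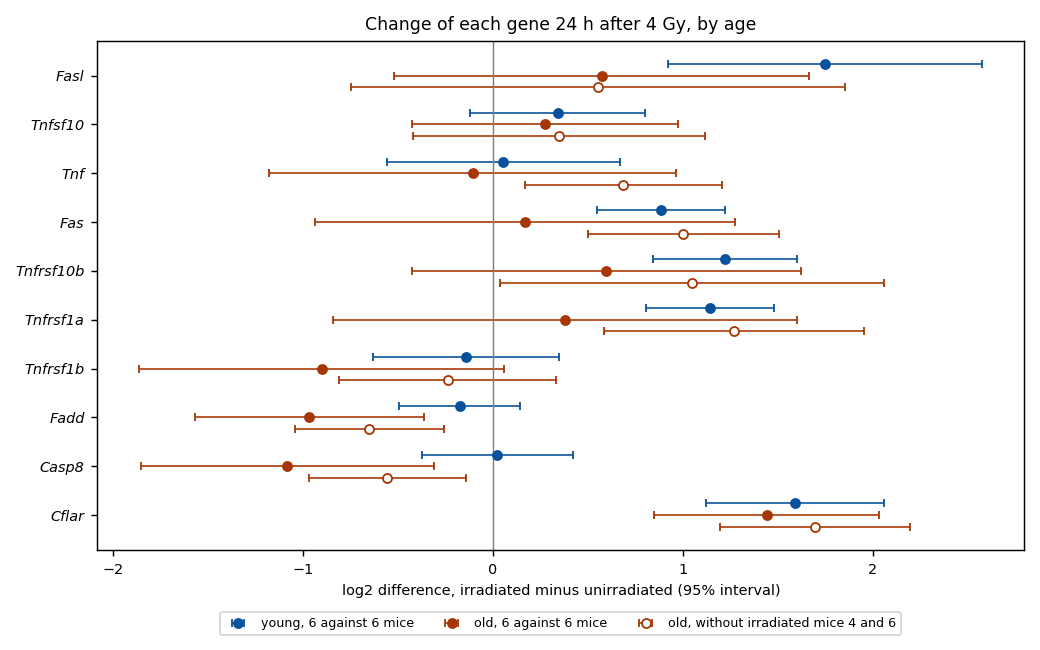
Log2 difference between irradiated and unirradiated mice with its 95% interval (x axis) for each of the 10 genes (y axis), in young mice, in old mice and in old mice without numbers 4 and 6. The interval for *Cflar* is above 0 in each set, those for *Fas* and *Tnfrsf1a* in old mice span 0 over 6 mice and not over 4, and those for *Fadd* and *Casp8* are below 0 only in old mice.

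Whether the response itself differed between the ages was tested as an interaction over the 24 arrays. Of all genes tested, 0% were called (4197 had an unadjusted p under 0.05, and the smallest adjusted p was 0.0604), and so 0 of the 10 genes were. The difference of the responses, old minus young, was -1.11 for *Casp8* (interval -1.94 to -0.27, adjusted p = 0.141) and -0.79 for *Fadd* (interval -1.42 to -0.16, adjusted p = 0.151), the only 2 members with an unadjusted p under 0.05. It was -0.15 for *Cflar* (interval -0.86 to 0.56), -0.72 for *Fas* (-1.86 to 0.43), -0.76 for *Tnfrsf1a* (-2.02 to 0.50), -0.63 for *Tnfrsf10b* (-1.70 to 0.45) and -1.18 for *Fasl* (-2.54 to 0.19). Without old irradiated mice 4 and 6 the estimates for *Fas* and *Tnfrsf1a* were 0.12 (-0.43 to 0.67) and 0.13 (-0.57 to 0.83), 0.152% of all genes were called, and again none of the 10. Calls for *Fadd* and *Casp8* appeared where mice with hepatocyte markers were left out. Without old irradiated mice 2, 3 and 5 the estimates were -1.204 (adjusted p = 0.00285) and -1.60 (0.00394), and without the young irradiated mice 2, 4 and 5 as well they were -1.14 (0.0183) and -1.71 (0.0138). Of all genes, 34% and 20.5% were called in these sets, so that 2 of the 10 genes is no more than the share over the whole array. In both of these sets mice 4 and 6 made up 2 of the 3 old irradiated mice.

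Several probes allowed the response of *Cflar* and *Tnfrsf1a* to be read more than once. The probe that stood for *Cflar*, A_52_P214612 (mm9 chr1:58770546-58770605), has the lowest coordinate of the 4. It is annotated to an Ensembl transcript, whereas the others are annotated to RefSeq transcripts. A_55_P1983468 lies at chr1:58789994-58790053, and A_55_P1983459 and A_52_P226929 lie at chr1:58810660-58810719 and chr1:58811116-58811175. In young mice all 4 were upregulated, by 1.59, 0.87, 1.31 and 1.04 in that order. In old mice over 6 irradiated animals the first was upregulated, by 1.44, and the others gave 0.60 (adjusted p = 0.0376), 0.13 (0.850) and 0.22 (0.670), none of them called. Without mice 4 and 6 the 4 values were 1.70, 0.67, 0.82 and 0.80, of which the third was not called (adjusted p = 0.0181). The mean of all 4 probes gave 0.60 in old mice (adjusted p = 0.144). The rise of *Cflar* in old irradiated mice over all 6 animals was thus called on 1 probe of 4.

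The 2 probes of *Tnfrsf1a* rose by 1.14 and 1.04 in young mice. In old mice they gave 0.38 and 0.82 over 6 animals, neither called, and 1.27 and 1.18 without mice 4 and 6, both called. With group means removed they correlated at r = 0.858 over the 24 arrays, and the *Cflar* probes at 0.458 to 0.894. The first *Tnfrsf1a* probe was spotted 10 times on each array, with a median SD between spots of 0.0526, and *Tnf* also 10 times, with 0.165, so spot noise was small beside the differences of *Tnfrsf1a* between the groups.

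**Figure D3:**
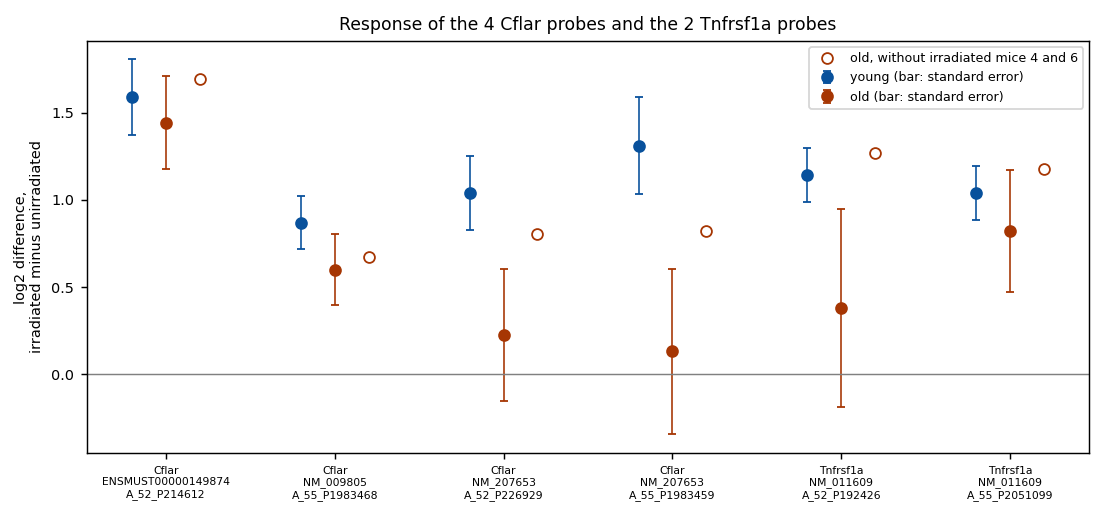
Log2 difference between irradiated and unirradiated mice (y axis) for each probe of *Cflar* and *Tnfrsf1a* (x axis). Filled points are young and old mice with bars of 1 standard error, and open points are old mice without numbers 4 and 6, drawn without a bar. All 6 probes are above 0 in young mice, whereas in old mice over 6 animals 3 *Cflar* probes give 0.60, 0.13 and 0.22.

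Before any irradiation, the levels of these genes were compared between the ages. On median-scaled arrays 7 of the 10 genes were higher in old mice, and in all 7 every old mouse was above every young mouse. These shares have to be read against a shift of the whole array: 48.5% of all genes were called higher in old mice and 15.4% lower, 37.4% had all old mice above all young mice, and the median over all genes was 0.63. *Fas* differed most firmly, from a median of 3.15 in young to 4.52 in old mice, a difference of 1.41 (SE 0.16, adjusted p = 1.39e-05) or 0.78 above the median of all genes. *Tnfrsf1a* went from a median of 5.17 to 6.61, by 1.35 (adjusted p = 0.000129), 0.72 above that median. *Tnfrsf1b* differed by 1.08 (0.45 above it), *Tnf* by 0.96 (0.34), *Casp8* by 0.88 (0.25), *Fadd* by 0.88 (0.25) and *Cflar* by 0.80 (0.17). *Fasl* differed by 1.57 (adjusted p = 0.0110), *Tnfrsf10b* by 1.19 (0.0136) and *Tnfsf10* by 0.65 (0.0562), with overlapping groups and p above the threshold.

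How the arrays were scaled decided most of these calls. With other scalings the median over all genes lay between 0.02 and 0.16, and the share of called genes that were higher in old mice, 75.9% on median-scaled arrays, was 36.7% with the 75th percentile, 48.6% after quantile normalization, 28% with the median of bright probes and 17.2% in the authors' deposited values. All 10 genes kept a positive difference under each of these scalings where they were measured. The median over all genes was positive too, and the share of all genes with a positive difference was not taken, so this count is a description only. *Fas* and *Tnfrsf1a* were called with the 75th percentile (0.89 and 0.83) and with the median of bright probes (0.82 and 0.76). *Tnf*, *Fas* and *Fadd* were called after quantile normalization (0.84, 0.88 and 0.49), and *Fas* alone of 9 genes in the authors' values (0.77). Called higher over all genes were 2288 (75th percentile), 3017 (quantile) and 1607 (bright probes) of 17805, and 763 of 17165 in the authors' values. Under normexp background correction none of the 10 was called, and none of the genes on the array. On median-scaled arrays, where 48.5% of all genes were called higher in old mice, so were 7 of 7 neutrophil and 5 of 7 monocyte markers. The same held for 4 of 6 B cell, 3 of 4 platelet and 1 of 5 natural killer cell markers. No T cell or red cell marker was called higher, and 1 T cell marker was called lower. Of 5 hepatocyte markers tested, 0 were called higher in old mice and 3 lower. The part of these cell types in the higher receptor levels was not tested.

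**Figure D4:**
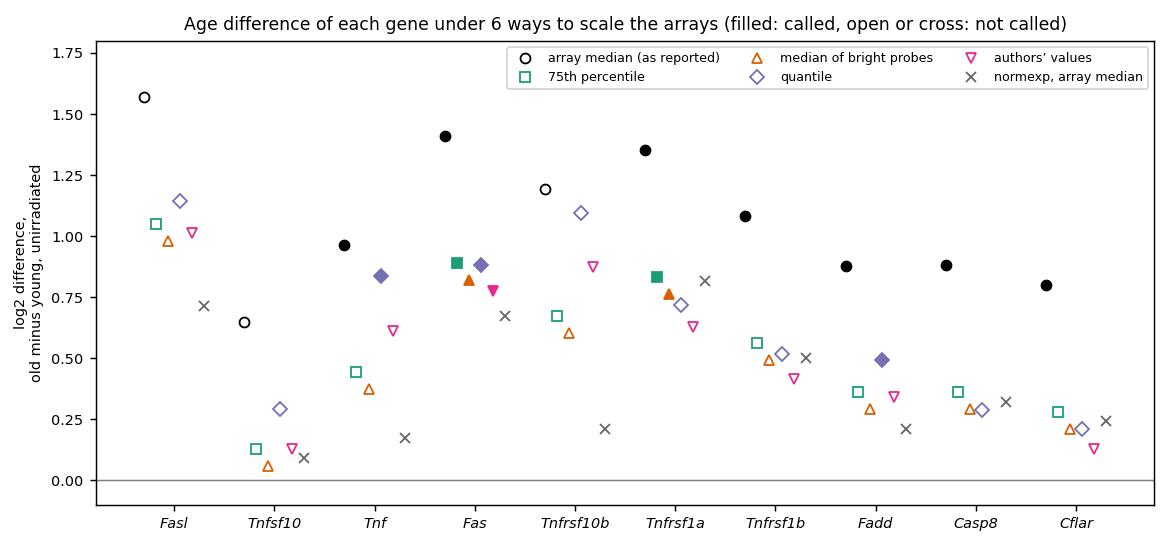
Log2 difference between old and young unirradiated mice (y axis) of the 10 genes (x axis) under 6 ways to scale or correct the arrays, with filled markers for called genes. All points are above 0, those on median-scaled arrays are the highest for each gene, and *Fas* is called under every setting but normexp.

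After irradiation, 0 of the 10 genes were called between the ages over all 6 old mice (1 had an unadjusted p under 0.05), beside 1.4% of all genes called higher in old mice and 0.595% lower. Without old irradiated mice 4 and 6, 5 of the 10 were called higher and 0 lower, beside 20.2% and 8.16% of all genes. These were *Tnf* (1.60, adjusted p = 0.00690), *Fas* (1.53, 0.00168), *Tnfrsf1a* (1.48, 0.00229), *Tnfrsf10b* (1.02, 0.00173) and *Tnfrsf1b* (0.98, 0.0158), against a median over all genes of 0.34. In the first 4 of these all 4 old mice were above all 6 young mice. The share of all genes with such a separation was not taken here, so this count is a description only.

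Across the 4 groups the medians of *Fas* were 3.15 in young unirradiated, 3.96 in young irradiated, 4.52 in old unirradiated and 5.13 in old irradiated mice. *Tnfrsf1a* gave the same order, with 5.17, 6.40, 6.61 and 7.49. This order of young irradiated and old unirradiated mice rested on median scaling. With the 75th percentile *Tnfrsf1a* rose by 1.15 after irradiation in young mice and was 0.83 higher in old than in young unirradiated mice, and the rise was also the larger of the 2 after quantile normalization (0.99 and 0.72), with the median of bright probes (1.17 and 0.76) and in the authors' values (0.95 and 0.63). For *Fas* the rise and the age difference were 0.89 and 0.89 with the 75th percentile, 0.90 and 0.88, 0.92 and 0.82, and 0.81 and 0.77 under the other 3 scalings. The last step, within old mice, was not beyond the spread between mice for either gene over 6 animals. For *Tnfrsf1a* young irradiated and old unirradiated mice also overlapped, whereas for *Fas* the highest young irradiated mouse, at 4.23, overlapped only the lowest old unirradiated mouse, at 4.21. For *Cflar* the order was different on the probe that stood for it, with 4.55 and 5.24 in unirradiated young and old mice and 6.13 and 6.59 in irradiated young and old mice. A_55_P1983468 gave that order too (2.19, 2.83, 3.11 and 3.32), whereas A_52_P226929 (1.67 in young unirradiated, 2.72 in young irradiated, 2.93 in old unirradiated and 3.45 in old irradiated mice) and A_55_P1983459 (-0.19, 1.05, 1.25 and 1.63) gave the order of *Fas*.

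With each group's mean subtracted, the genes that followed each member most closely over the 24 arrays were sought among 10397 genes bright enough to stand above background on every array. These correlations describe mice that share cell mixture, array and slide, and carry no test. *Fasl* went with *Zap70*, a T cell receptor kinase (r = 0.947), with *Cxcr3*, a chemokine receptor of activated lymphocytes (0.941), and with *Abcb9* (0.940), and the values changed little without old irradiated mice 4 and 6 (0.949, 0.941 and 0.945). *Tnfsf10* went with *Cxcr6* (0.923), *Id2* (0.858) and *Cxcr3* (0.856), so that both ligands shared *Cxcr3*, and they correlated with each other at 0.843. *Fas* went with *Rnf130*, *Tmem185b* and *Mpeg1*, a macrophage gene (0.983, 0.980 and 0.980, or 0.894, 0.880 and 0.872 without the pair). *Tnfrsf1a* went with the innate receptor gene *Tlr2* (0.987), *Nfil3* (0.985) and *Anxa2* (0.985), at 0.951, 0.946 and 0.950 without the pair.

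*Fas* and *Tnfrsf1a* correlated with each other at 0.962, and at 0.819 without the pair. *Fas* and *Casp8* correlated at 0.769 over all arrays and at 0.000638 without old irradiated mice 4 and 6, so that this relation rested on those mice. *Tnfrsf1b* went with *Cd300c2* (0.955), *Dusp6* (0.948) and *Lmo4* (0.947). *Tnfrsf10b* went with an unnamed probe (0.886), *Naa10* (0.863) and *Zmat3* (0.858), a known p53 target. *Cflar* went with 4831440E17Rik (0.970), with *Tal1*, a transcription factor of blood progenitors and red cells (0.964), and with *Ubap1* (0.954). *Tnf* (*Papd5*, *Ankrd11* and *Dusp16*, 0.937 to 0.946), *Fadd* (*Utp4*, *Dis3* and *Sdhaf1*, 0.928 to 0.930) and *Casp8* (*Hltf*, *Ncbp1* and *B3galnt2*, 0.968 to 0.969) went with genes whose values were 0.810 to 0.900 without the pair.

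**Figure D5:**
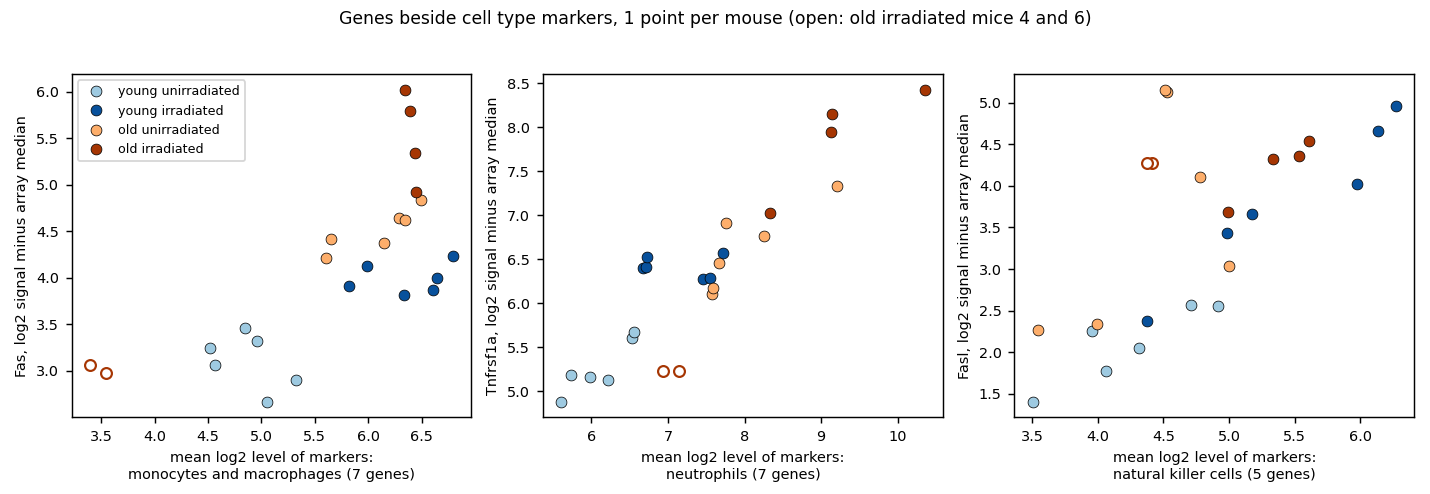
Levels (y axes, log2 signal minus array median) of *Fas*, *Tnfrsf1a* and *Fasl* against the mean log2 level of monocyte, neutrophil and natural killer cell markers (x axes), with 1 point per mouse coloured by group. Old irradiated mice 4 and 6, drawn open, are at the low end of the monocyte list (3.39 and 3.55) with *Fas* at 3.06 and 2.98.

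The wider pathway was read from a list of 40 genes in 6 roles, of which 37 were tested. In young mice 13 were upregulated and 7 downregulated, in old mice 3 and 6, and in old mice without numbers 4 and 6 the counts were 8 and 6. Over all genes 14.3% and 21.1% were called in these directions in young mice, 7.49% and 17.4% in old mice and 11.7% and 22.7% without the pair. Between unirradiated ages 23 were higher and 2 lower in old mice on median-scaled arrays, where 48.5% and 15.4% of all genes were and the whole array shifted by 0.63. The list's median changes were 0.06 in young and -0.11 in old mice, against -0.20 and -0.26 over all genes. The interaction called 0 of the 37, and 1 without mice 4 and 6.

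Among the other ligands, *Lta*, encoding lymphotoxin alpha, fell by 1.83 in young mice (adjusted p = 5.62e-06) and by 1.48 in old mice (adjusted p = 0.00416), or by 1.03 without mice 4 and 6. *Tnfsf14*, encoding LIGHT, rose by 1.501 in young mice (adjusted p = 0.00221), and in old mice it gave 0.95 over 6 animals (adjusted p = 0.130) and rose by 1.56 over 4 (adjusted p = 0.00431). *Tnfsf15* rose by 1.21 in young mice and by 1.05 in old mice, with or without the pair, from low means of -0.47 and 0.07 in unirradiated mice. *Ltb*, the membrane partner of lymphotoxin alpha, fell by 1.32 in old mice, a call that was lost without mice 4 and 6 (-0.87, adjusted p = 0.0379). Among the other receptors, 3 were upregulated and 1 downregulated in young mice, led by the decoy receptor gene *Tnfrsf22*, which fell by 1.64 (to a mean of -0.37, below a typical spot), *Tnfrsf21* (death receptor 6), which rose by 1.21, and *Ltbr*, the lymphotoxin receptor, which rose by 1.197. In old mice none of the 6 tested was called over 6 animals and 1 over 4.

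Of the 14 adaptors and ubiquitin enzymes of the receptor complex, 2 rose and 4 fell in young mice and 0 rose and 3 fell in old mice (1 and 4 without mice 4 and 6), near the shares over all genes. *Birc2* (cIAP1) rose by 1.35 and its relative *Birc3* (cIAP2) fell by 1.19 in young mice, and *Tnfaip3*, which encodes the ubiquitin editing enzyme A20, fell in both ages, by 1.12 in young mice and by 0.97 in old ones (0.73 without the pair). *Traf2* and *Tradd*, the adaptors of TNF receptor 1, fell by 1.28 and 1.13 in old mice and, still called, by 0.91 and 0.66 without mice 4 and 6. Of the 3 genes of necroptosis, the death route open when caspase 8 is blocked, *Zbp1* and *Mlkl* rose in young mice, by 1.91 (adjusted p = 5.05e-06) and 1.84 (adjusted p = 4.43e-05), whereas in old mice they gave -0.08 (adjusted p = 0.851) and 0.25 (adjusted p = 0.488), or 0.30 and 0.52 without the pair, not called. *Ripk3*, the kinase upstream of MLKL, fell by 1.66 in old mice (adjusted p = 0.00337), by 1.24 without the pair, and gave -0.09 in young mice (adjusted p = 0.662). Tested directly, the interaction of age and radiation called 0 of these 3 genes over all mice and 1 without mice 4 and 6, beside 0% and 0.152% of all genes.

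Downstream of caspase 8, *Bid*, which links the receptors to mitochondria, rose by 0.92 in young mice (adjusted p = 0.00766). In old mice it gave 0.39 over 6 animals (adjusted p = 0.353, not called) and rose by 0.80 without mice 4 and 6. Of 4 genes for shedding of ligands and receptors, *Timp3*, an inhibitor of the sheddases, rose by 2.90 in young mice (adjusted p = 5.62e-06) and by 2.42 in old mice (adjusted p = 0.00226, or 3.01 without the pair), and *Adam10*, a sheddase of FAS ligand, rose by 0.73 in young mice and by 1.08 in old mice (0.96 without the pair). *Timp3* started below a typical spot, at a mean of -1.22 in young and -0.46 in old unirradiated mice.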

How the data were processed

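Whole blood RNA of 24 male mice was labelled with Cy3 and hybridized to Agilent 4x44K v2 mouse arrays, with 1 mouse per array. The authors deposited 1 file per array from Feature Extraction 12.0.2, whose intensity values were corrected for background and were not scaled between arrays, and a table of log2 values that had been filtered and normalized by the authors before deposit (17166 genes, 9 of the 10 members, column medians 5.77 to 6.73). That table, whose normalization is not stated beyond the methods' median normalization, was used only as an alternative. Columns of fold changes or p-values were not used.

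Spots marked non-uniform were left out, and each log2 intensity was expressed relative to the median of the 43020 non-control spots on its array. Probes that were non-uniform or too dim on at least 25% of arrays were dropped (24130 of 39429 probes left), repeat spots were averaged, probes had to differ 1.5-fold from their median in 20% of the arrays (5 arrays), and the probe with the highest mean stood for its gene (17805 genes). Groups came from the sample labels. Irradiated and unirradiated mice were compared within each age, old and young mice within each treatment (12 arrays each), and the responses by an interaction over 24 arrays, with limma's moderated test, two-sided, called at p under 0.005 and Benjamini-Hochberg adjusted p under 0.05. This stands in for the random variance test of the methods. The number of arrays and the signal over background limit the precision. On simulated data with 17805 genes, changes of 1 and 2 on the log2 scale were called in 42% and 92% of cases in the young comparison and in 11% and 66% in the old comparison. Only 100 genes were changed by each amount, whereas 35.4% and 24.9% of all genes were called in the real comparisons. The adjusted p depends on how many genes change, so these rates do not carry over to the tests reported here.

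The 10 genes and the pathway and marker lists were chosen with earlier results of these data known. All 10 are named, and of each pathway role up to 3 called genes with the largest change within an age. *Tnfsf14* was named in old mice, *Bid*, *Zbp1*, *Mlkl* and *Ripk3* in both ages, for the sake of comparison. A result that the rule selects is not reported here. Likeness was taken over genes well above background on all 24 arrays, 3 per member. Alternatives were other scalings, filters, probe rules, variance models, blocks and left-out mice. Leaving out old irradiated mice 4 and 6 together, counting similar arrays as 1 sample and leaving out all arrays with hepatocyte markers above 8 were chosen after seeing the data. R 4.3.3, limma 3.58.1, data.table version 1.17.8, Python 3.11.15, NumPy 2.4.6 and Matplotlib 3.10.9 were used.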

Additional observations from a re-analysis of the deposited data

Results flagged for a closer look

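In old irradiated mice the level of *Fasl* in mouse 5, at 3.69, lay apart from the other 5 mice, which were between 4.28 and 4.54. The gap divided by the range of the group was above the 95% critical value of Dixon for 6 samples. Of 40 combinations of gene and group checked this way, 1 was past it, and chance alone gives about 1 in 20.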

How the results depend on the processing

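No called difference of the 10 genes changed direction under any alternative run. In young mice the 5 calls fell to 3 under normexp correction (offset 50; *Fasl*, *Tnfrsf10b* and *Cflar*), 3 in 1 fit of all 24 arrays, 2 with slide as a fixed block and 0 within the 1 slide that held both groups, where 2 mice met 2. In old mice the 2 calls fell to 1, *Cflar*, with the 75th percentile, quantile normalization, the median of bright probes, the authors' values, no filter on dim probes, slide as a fixed block and similar arrays counted as 1 sample, to 1, *Fadd*, with the mean of a gene's probes, and to 0 under normexp, and there were 4 without mice 4 and 6. Between unirradiated ages the 7 calls fell to 2 (75th percentile), 3 (quantile), 2 (bright probes), 0 (normexp) and 1 (authors' values). Over all genes 2288, 3017, 1607, 0 and 763 were called higher in these settings. Between irradiated ages the count went from 0 to 5 without mice 4 and 6, and the interaction from 0 to 2 without old irradiated mice 2, 3 and 5 and to 2 without every array with hepatocyte markers, beside 0%, 34% and 20.5% of all genes called. Within the 1 slide that held both old groups the 2 calls were *Cflar* and *Tnfrsf1a* (1.72, adjusted p = 0.0390), and *Casp8* was called in 1 fit of all 24 arrays (-1.09, adjusted p = 0.00341). The causes were not tested.

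Leaving out 1 mouse at a time gave 5 to 5 calls in young mice, 1 to 2 in old mice, 7 to 8 between unirradiated ages, 0 to 0 between irradiated ages and 0 to 0 for the interaction. Between unirradiated ages *Fasl* was called without old mouse 4 (1.85) or 5 (1.84), and *Tnfrsf10b* without old mouse 3 (1.46). In old irradiated mice the share of called genes that rose, 30.1%, was 43.4%, 32.7%, 49%, 92.4% and 52% with the 75th percentile, quantile, bright-probe, normexp and authors' scalings. Normexp called 1361, 172, 0, 119 and 0 genes in the 5 comparisons.

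The replicate numbers do not pair mice: with the same number, deviations from the group means correlated at -0.254 to 0.282 in young mice, -0.236 to 0.409 in old mice, -0.137 to 0.284 between unirradiated and -0.643 to 0.534 between irradiated ages, so that in no comparison was every pair over 0.1 (1, 3, 1 and 4 of 6 were), and 1, 3, 0 and 1 of 6 mice correlated best with their own number. With the replicate block the counts were 5 in young mice, 1 in old mice (*Fadd* was lost, at -0.97, adjusted p = 0.0367), 7 between unirradiated ages, 0 between irradiated ages and 0 for the interaction. Young irradiated mice 1 and 6 and mice 2 and 5, and old unirradiated mice 1 and 6, were very alike (r = 0.991, 0.994 and 0.998), as were old irradiated mice 4 and 6 (0.994), which were not among the similar arrays counted as 1 sample. They were kept as separate mice because the labels name them so. Whether any pair is 1 sample hybridized again was not tested.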
